A study of Pinctada fucata with 15 samples.

Results

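The comparison set juveniles of the pearl oyster Pinctada fucata, 35 days old, against fertilized eggs taken at 0 hours, and so measured the net change in transcripts between the start and the end of larval development. The members were the 6 arrays labelled with these stages, 3 pools of animals each, out of 15 arrays in all. Each array carried 58883 probes, of which 58583 were designed from unigenes of an assembled mantle transcriptome and 300 from GenBank sequences. The larvae between the ends, trochophores at 17 hours, D-shaped larvae at 48 hours and umbonal larvae at 14 days, served only to ask which egg transcripts fell and were back in juveniles. All stages came from ordinary culture without special treatment. Every pool mixed whole animals, so fewer cells of a type and less RNA per cell cannot be told apart, and an array designed from adult mantle does not see transcripts that the mantle lacks.

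An egg enters development with transcripts laid down by the mother, which drive the first divisions and are then cleared while the embryo's own genes take over. A juvenile has settled and carries a mantle, the tissue that secretes the shell. Shell matrix proteins steer the growth of calcium carbonate into calcite prisms and nacre, and tyrosinases and peroxidases crosslink the outer organic layer of the shell.

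The egg and juvenile arrays differed in quality as well as in stage. Between 53.3% and 65.6% of spots were well above background on the egg arrays against 89.3% to 91.2% on the juvenile arrays. The lowest signal well above background lay between 6.05 and 7.45 on the normalized log2 scale in eggs and between 3.66 and 3.85 in juveniles. Many undetected probes of the first egg array shared a tied value of 4.36. All egg arrays lay on slide 1 and all juvenile arrays on slide 2, so slide and stage cannot be told apart. The D-shaped stage, which spans both slides, had 70.4% and 74.6% of spots well above background on slide 1 and 86.1% on slide 2. The third egg pool stood apart at probes that were bright in juveniles. Of 905 probes called higher in juveniles with a juvenile mean of at least 14, 548 had their highest egg value in that pool, against 11937 of the 30331 probes measured on all 6 arrays, and the part of this in the results was not tested beyond leaving that pool out.

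Juveniles and eggs had very different transcript profiles. A probe was tested, and is called measured in a stage, where every one of the 3 pools of that stage gave a signal well above background. Of 52167 probes measured in eggs, in juveniles or in both, 33998 were called, which is 65.2% (limma, Benjamini-Hochberg adjusted p below 0.05 and at least 2-fold). Rises and falls were close in number after quantile normalization, with 16897 probes higher (32.4%) and 17101 lower (32.8%) in juveniles. This even split does not hold on other scales. A shift to the 75th percentile of each array gave 22076 higher and 14769 lower, and spike-in scaling gave 31934 higher and 7029 lower, with medians over all tested probes of 0.51 and 1.81 on the log2 scale against 0.00 for the quantile values.

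The split followed detection. Among the 30331 probes measured on all 6 arrays, falls outnumbered rises: 13952 probes were lower (46.0%) and 5410 were higher (17.8%) in juveniles, and the median change was −0.79 on the log2 scale. That set leaves out transcripts that were dim in eggs and rose. Of the 13777 probes measured on all juvenile arrays and on no egg array, 8527 were called higher, and 4168 of these had a lower bound of at least 2-fold. A lower bound sets the juvenile mean against the lowest signal well above background on each egg array, or the probe's own value where that was higher. The 550 calls in the other direction among these 13777 probes concern probes with no measured egg level, and the 75th-percentile shift gave 6. Probes on all juvenile arrays but on only 1 or 2 egg arrays gave 643 and 1271 falls. These were 42 and 283 after the 75th-percentile shift, and 0 and 5 with spike-in scaling. In the reverse case, 279 probes were measured on all egg arrays and on no juvenile array, and all 279 were called lower with a bound of at least 2-fold. When both stages were floored at the highest egg detection limit, 10826 probes were higher and 12454 lower.

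**Figure D1:**
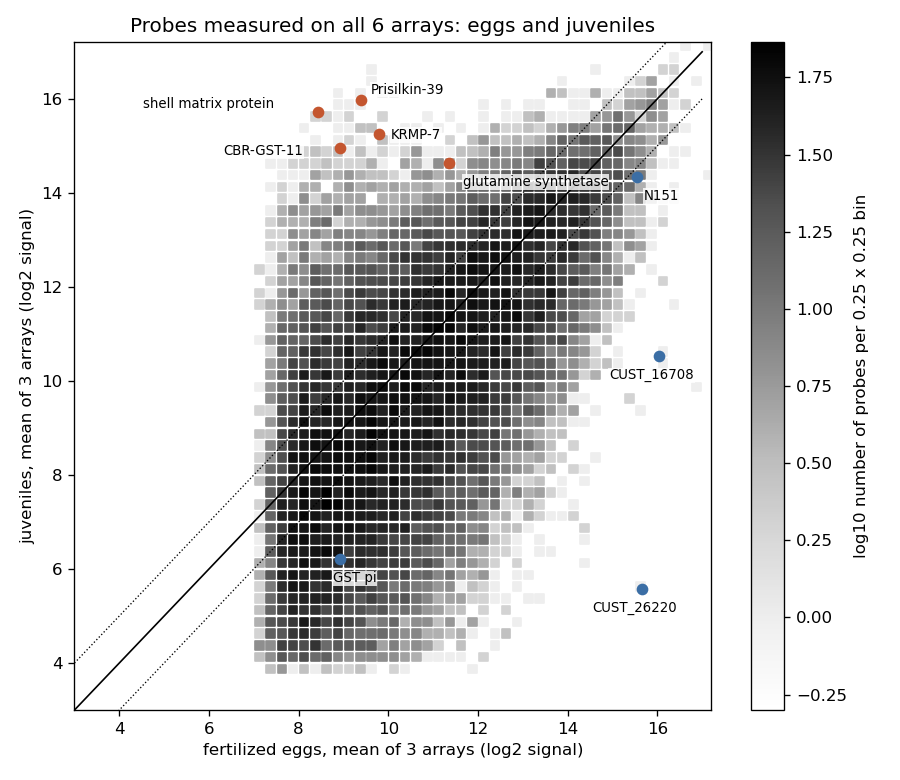
Mean log2 signal in fertilized eggs (x axis) and juveniles (y axis) of the 30331 probes measured on all 6 arrays, as shading by number of probes per bin, with the line of equality, dotted lines at 2-fold and selected probes marked (orange higher, blue lower). More of the shading lies below the line than above it, with 13952 probes called lower and 5410 higher, and no probe of this set has an egg level near the low end of the juvenile range.

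**Figure D2:**
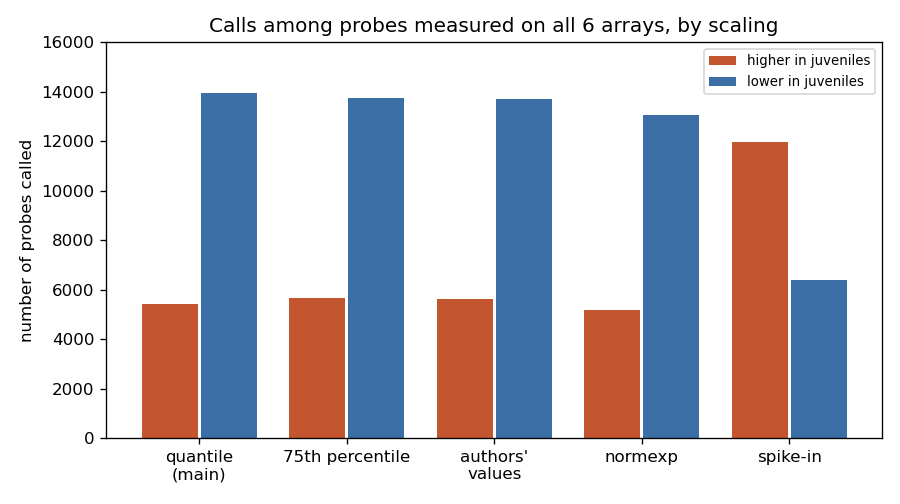
Number of probes called higher (orange) and lower (blue) in juveniles among those measured on all 6 arrays, for 5 ways of scaling the arrays. Falls exceed rises in 4 of the 5, and spike-in scaling turns the balance to 11989 higher and 6390 lower.

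Large changes were common in both directions. Among probes measured on all 6 arrays, 8629 fell and 2576 rose at least 4-fold, 1911 fell and 479 rose at least 16-fold, and 172 fell and 64 rose at least 64-fold. Over the 27474 probes measured on all 15 arrays, the correlation of stage means with eggs, taken across probes that are not independent, was 0.76 for trochophores, 0.68 for D-shaped larvae, 0.63 for umbonal larvae and 0.61 for juveniles. The single-pool correlations ran from 0.582 to 0.617 for juveniles and from 0.599 to 0.643 for umbonal larvae, so these neighbours overlapped, while the range for trochophores, 0.726 to 0.765, lay above both. The mean absolute difference from eggs was 1.09, 1.35, 1.55 and 1.69 on the log2 scale in the same order, but on the spike-in scale it was 1.68 for umbonal larvae and 1.66 for juveniles. Of these probes 37.9% lay within 2-fold of their egg level in juveniles against 56.3% in trochophores.

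The transcripts that fell farthest were bright in eggs and dim in juveniles. The largest fall among probes measured on all 6 arrays was that of CUST_26220, which the study's pathway tables list under progesterone-mediated oocyte maturation and p53 signalling. Its log2 signal was 15.67, 15.70 and 15.63 in the egg pools and 5.11, 5.36 and 6.28 in the juvenile pools, a fall by 10.08 ± 0.25 (SE, limma adjusted p = 3.6e-12). The egg and juvenile pools were far apart, and the larval means of 13.24, 7.05 and 10.40 lay between them without a steady decline. A second probe of the maturation list, CUST_16708, also listed under cell cycle and oocyte meiosis, lay between 15.91 and 16.20 in the egg pools and read 10.66, 10.58 and 10.35 in juveniles, and fell by 5.51 ± 0.18 (limma adjusted p = 1.6e-11). It stayed well above background in every juvenile pool.

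The other 9 of the 10 largest falls on all 6 arrays ranged from −8.42 to −7.81 on the log2 scale, and all 10 were called lower than eggs at each larval stage as well. Most have no gene name in the sources used here. Of probes measured on no juvenile array, CUST_3460 had the highest lower bound. Its egg mean was 11.56, and its level in juveniles was at least 224-fold lower. CUST_3794 followed another course, with stage means of 9.62, 9.27 and 10.47 in the larvae against 10.46 in eggs, and was not measured on any juvenile array, which puts it at least 104-fold lower.

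Several gene groups of the nucleus and of RNA handling, but not all of them, were lower in juveniles. The groups were the probes that supplementary tables of the study list for a pathway or cell component, and those described here come only from its comparisons among larvae, which used neither the egg nor the juvenile arrays. Each list holds only part of its pathway, at most 17 probes per comparison, and lists share members. The study listed probes that changed between larval stages, whereas the shares over all probes given beside them involved no such choice. Of 17 probes listed for DNA replication, the enzymes that copy the genome, 12 were lower and 3 higher, and the median of the 15 measured on all 6 arrays was −3.05 on the log2 scale against −0.79 over all such probes. Of 28 listed for the chromosome, 19 were lower and 2 higher. The spliceosome, which removes introns, had 13 of 17 lower and 1 higher, with a median of −2.25 over 16 probes. RNA degradation had 11 of 17 lower and 4 higher, and ubiquitin-mediated proteolysis, which tags proteins for destruction, 10 of 16 lower and 5 higher. The nucleolus, where ribosomes are built, had 13 of 25 lower and 2 higher. Other groups of this kind leaned less. Mismatch repair had 7 of 15 lower and 6 higher, and nucleotide excision repair 7 of 17 lower and 6 higher. Aminoacyl-tRNA biosynthesis had 7 of 16 lower and 3 higher. On all 6 arrays these 3 groups had 6 of 11, 7 of 14 and 7 of 15 lower, and 3, 3 and 2 higher. Among members measured on all 6 arrays, where 46.0% of all probes were lower, falls numbered 12 of 15 for DNA replication, 18 of 25 for the chromosome, 13 of 16 for the spliceosome, 8 of 9 for RNA degradation, 10 of 10 for ubiquitin-mediated proteolysis and 11 of 16 for the nucleolus. On the spike-in scale the falls were 11 for DNA replication, 15 for the chromosome and 8 for the spliceosome, so falls still outnumbered rises in these groups, whereas the nucleolus turned to 12 higher and 7 lower.

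Members named here were chosen as extremes of their lists, which largely fixes that their values left no overlap between stages. Other members of these groups rose, as counted above. CUST_23076, listed under DNA replication and chromatin, read 9.43, 9.33 and 9.48 in eggs and 4.46, 4.37 and 4.15 in juveniles, a fall by 5.08 on the log2 scale. CUST_10165, listed under the spliceosome, read 13.93, 14.04 and 13.74 in eggs and 8.64, 8.59 and 8.21 in juveniles, a fall by 5.42. CUST_19008, listed under RNA degradation, read 13.63, 13.41 and 13.39 in eggs and 7.17, 7.42 and 7.54 in juveniles, a fall by 6.10. All were tight within a stage, with every juvenile pool well below every egg pool.

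Egg-stage pathways by name had members called in both directions. Of the 17 probes listed for oocyte meiosis from the larval comparisons, 6 were lower and 8 higher in juveniles, and of the 17 for progesterone-mediated oocyte maturation 8 were lower and 6 higher. With the probes listed from all comparisons, which include those made on the egg and juvenile arrays, 14 of 27 and 16 of 27 were lower. Cell cycle had 8 of 17 lower and 3 higher. Over all tested probes 32.4% were higher and 32.8% lower. Rises on no egg array were 6 of 8 for oocyte meiosis, 4 of 6 for maturation and 2 of 3 for cell cycle. Such probes entered the test only through their juvenile signal. On all 6 arrays, in the same order, 4 of 8, 6 of 9 and 6 of 10 members were lower. Rises there numbered 2, 2 and 1, against 46.0% lower and 17.8% higher over all such probes. Spike-in scaling turned these larval-comparison lists to 11 higher and 3 lower, 10 and 4, and 10 and 3.

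Several groups of receptors, matrix and differentiated tissue were mostly not measured in eggs, and few of their members could be compared on all 6 arrays. A probe on no egg array entered the test only through its juvenile signal, and 61.9% of all such probes were called higher and 3.99% lower, so the counts that follow are descriptions and are given by detection. Calcium signalling, the release and sensing of calcium ions in cells, had 10 of 11 probes higher among those on no egg array and 2 of 2 among those on all 6 arrays. Neuroactive ligand-receptor interaction, the receptors for transmitters and peptides, had 15 of 19 higher among those on no egg array but 2 higher and 4 lower of the 6 on all arrays, with a median of −2.13 on the log2 scale. Most of its 19 rises were thus of receptors with no measured egg level. Hedgehog signalling had 10 of 14 higher on no egg array and 2 higher and 1 lower of the 5 on all arrays. The extracellular matrix had 6 of 10 higher on no egg array, near the share of all such probes, and its 1 member on all arrays was higher. The sarcomere, the contractile unit of muscle, had 2 of 3 higher on no egg array, and of its 2 members on all arrays 1 was lower and the other was not called. Other such groups had more members on all 6 arrays, where 46.0% of all probes were lower and 17.8% higher. The synapse had 7 of 12 lower and 2 higher there, and cell adhesion molecules 6 of 12 lower and 5 higher. Cardiac muscle contraction had 5 of 7 lower and 2 higher, and extracellular matrix receptor interaction 4 of 11 lower and 3 higher. With probes on no egg array set at their bound, the median log2 changes were lower. They were 1.54 in place of 3.59 for calcium signalling and 0.51 in place of 1.88 for neuroactive receptors.

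Groups of basic metabolism had more probes without a call than the 34.8% over all tested probes. Glycolysis had 15 of 28 probes not called, 8 higher and 5 lower, with a median of 0.04 over the 22 measured on all 6 arrays. The proteasome, which degrades tagged proteins, had 14 of 25 not called, 3 higher and 8 lower, with a median of 0.27 over 21. Oxidative phosphorylation had 6 of 11 not called. Rises among the 28 glycolysis probes numbered 14 after the 75th-percentile shift and 22 on the spike-in scale. The dynein complex, the motor of cilia and sperm tails, had 7 of 15 lower and 1 higher on the quantile scale but 2 lower and 4 higher after the 75th-percentile shift, so no direction is given for it.

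**Figure D3:**
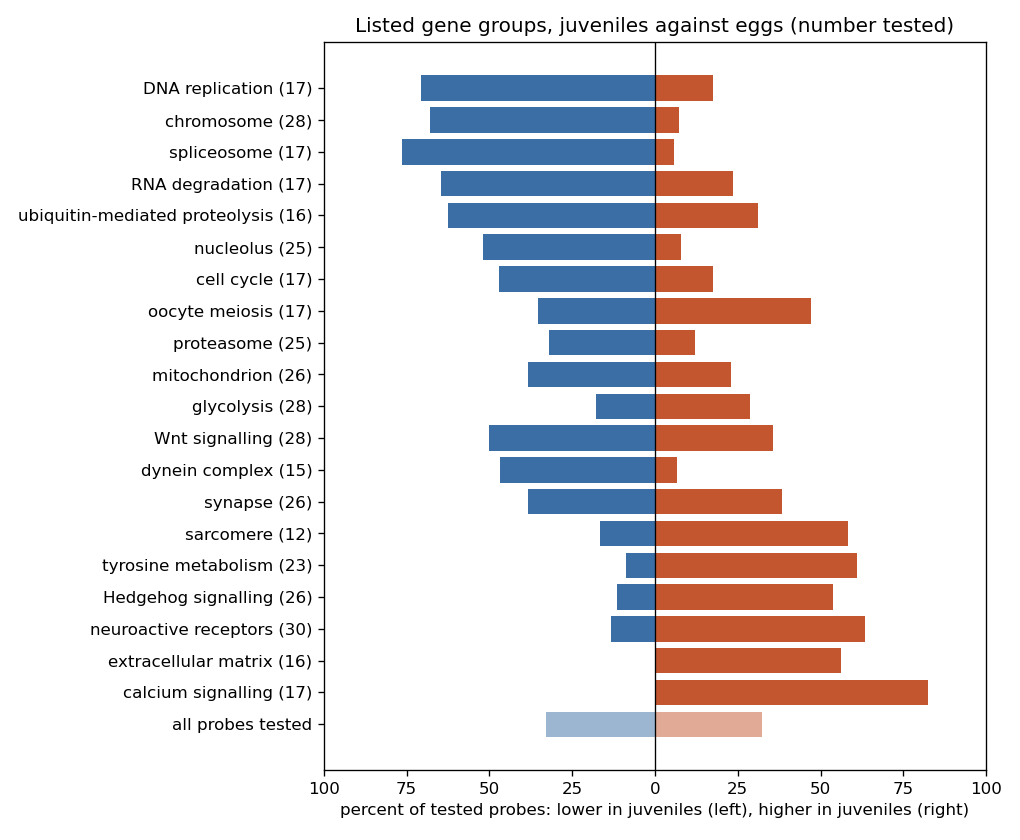
Percent of tested probes called lower (blue, left) and higher (orange, right) in juveniles than in eggs for 20 listed gene groups, with the number tested in brackets and all tested probes in the bottom bar. Spliceosome, DNA replication and chromosome have the longest bars to the left, and calcium signalling the longest to the right, with 14 of 17 probes higher, 11 of the 17 being on no egg array.

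Shell-formation genes rose in juveniles, many of them from levels that could not be measured in eggs. In a list of 30 biomineralization probes, 29 could be tested, and 26 were higher, 1 lower and 2 not called. Of the 10 measured on all 6 arrays 7 were higher and 1 lower, against 17.8% higher and 46.0% lower over all such probes. The 75th-percentile shift also gave 26 higher and 1 lower, and spike-in scaling gave 27 higher, with N151 no longer called. In eggs 13 of the 30 were on no array and 10 were on all 3. The median over the 10 measured on all 6 arrays was 3.76 on the log2 scale. Over all 29 it was 4.87 with probes on no egg array set at their bound and the others at their fitted change.

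Some shell matrix genes, those of the prismatic layer among them, had egg signals on at least 2 arrays and very high juvenile ones. CUST_44067, a shell matrix protein, read 8.05, 8.19 and 9.05 in eggs and 15.94, 15.81 and 15.43 in juveniles, a 157-fold rise (log2 7.30 ± 0.24, SE, limma adjusted p = 2e-11). It was the largest rise among all probes measured on all 6 arrays. Prisilkin-39 (CUST_36021), a chitin-binding protein of the prisms, read 8.66, 9.04 and 10.49 in eggs and between 15.85 and 16.05 in juveniles, a 95.4-fold rise (limma adjusted p = 1.6e-09). Prismalin-14 (CUST_53622), another protein of the prismatic framework, was measured on 2 of 3 egg arrays and lay between 6.71 and 7.96 in eggs against 14.96, 15.12 and 14.86 in juveniles, at least 162-fold higher with the unmeasured egg array set at its detection limit. In all of these the third egg pool was the highest of the egg pools and every juvenile pool was above every egg pool. A further probe for a Prismalin-14 precursor, CUST_52129, was on no egg array and was at least 216-fold higher in juveniles.

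Genes of nacre were mostly not measured in eggs. Of 5 probes grouped under nacre 4 were higher in juveniles and 1 was lower, against 32.4% and 32.8% over all tested probes. The lower probe was N151, the only 1 of the 5 on all 6 arrays. Pif (CUST_58195), which binds aragonite and chitin, read 4.36, 3.96 and 4.99 in eggs, none well above background, and 13.22, 13.39 and 13.03 in juveniles, at least 91.9-fold higher (limma adjusted p = 1.4e-11). An MSI60-related protein (CUST_31135), of the insoluble nacre framework, was at least 75.5-fold higher. Pearlin (CUST_27219) read 4.36, 4.75 and 7.27 in eggs and 14.59, 14.42 and 14.49 in juveniles, and was measured on 1 egg array. With the other egg arrays set at their detection limits it was at least 169-fold higher. Nacrein (CUST_57434), a carbonic anhydrase of the shell matrix, was measured on 2 egg arrays and went from 7.23, 6.91 and 6.88 to 9.51, 9.45 and 9.36, at least 5.14-fold higher, with no overlap between stages.

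N151 (CUST_53588) fell, the only member of the list to do so. It read 15.15, 15.71 and 15.76 in eggs and 14.38, 14.32 and 14.34 in juveniles, a fall by 1.20 ± 0.21 (limma adjusted p = 0.00018) from a very high egg level. The groups did not overlap, but the call was lost on the spike-in scale (−0.89) and with a slide term (−0.53). PFMG1/7 (CUST_45506) read 9.69, 9.83 and 10.07 in eggs and 9.73, 9.79 and 9.37 in juveniles, with overlapping pools and a difference of −0.24 on the log2 scale (limma adjusted p = 0.38). The iron-storage relative ferritin-like protein (CUST_56226) was 0.51 higher and was not called (limma adjusted p = 0.093). PFMG2 (CUST_40154), in contrast, rose 6.81-fold from 12.38, 12.57 and 12.53 in eggs to 15.31, 15.28 and 15.19 in juveniles.

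Shematrins and KRMPs, glycine-rich and lysine-rich proteins of the shell framework, were higher throughout. Shematrin-4 (CUST_24804) read 4.36, 3.73 and 7.54 in eggs and 15.42, 15.54 and 15.01 in juveniles, at least 282-fold higher with the first and second egg arrays, where the probe was not well above background, set at their detection limits (limma adjusted p = 1.8e-08). Shematrin-7 (CUST_47372) was measured in every egg pool and rose by 5.30 on the log2 scale. KRMP 1 (CUST_38575) was on no egg array and at least 39.7-fold higher.

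**Figure D4:**
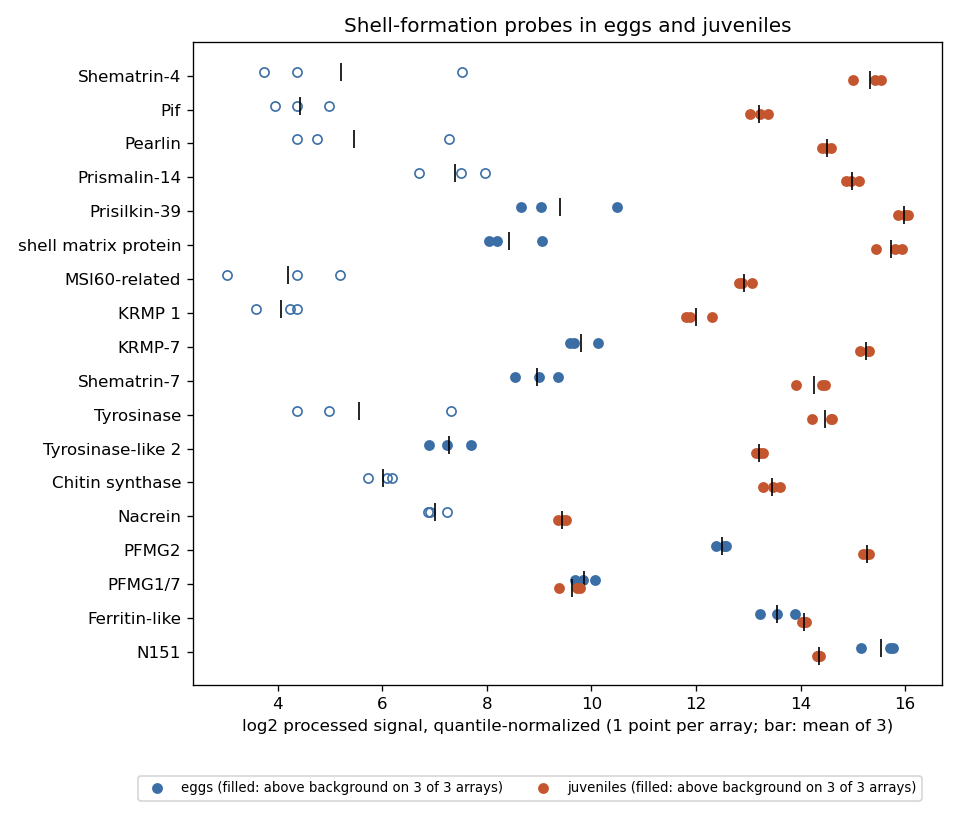
Log2 signal of 18 shell-formation probes on each egg (blue) and juvenile (orange) array, with a bar at the mean of 3 and open circles where a stage was not well above background on all 3 arrays. The juvenile points lie to the right of the egg points for all but PFMG1/7, where they overlap, and N151, where the egg points lie to the right, and 1 egg point stands apart for Shematrin-4, Pearlin and Tyrosinase.

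Enzymes of chitin and of tyrosine chemistry rose as well. The chitin synthase probe CUST_24765, for the enzyme that makes the polysaccharide frame of the shell, read 6.10, 5.74 and 6.20 in eggs and 13.47, 13.61 and 13.28 in juveniles, at least 105-fold higher. It was already at 13.06 in D-shaped larvae. A tyrosinase (CUST_35887) was on no egg array and at least 230-fold higher, but its larval means were 7.61, 5.73 and 4.75, so the rise lay at the juvenile end. Tyrosinase-like protein 2 (CUST_41072) was measured in every egg pool and rose 61.4-fold (limma adjusted p = 3.1e-10).

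In the list of 26 tyrosine pathway probes, 20 were higher, 2 lower and 4 not called. Over all tested probes 32.4% were higher and 32.8% lower. The study chose the list for changes in every consecutive comparison from trochophores to juveniles, the last made on these juvenile arrays. Of the 8 on no egg array 7 were higher. Of the 14 on all 6 arrays 9 were higher and 2 lower, against 17.8% and 46.0% over all such probes. Of 10 glutathione S-transferases in that list, enzymes that join glutathione to reactive compounds, 8 were higher, 1 lower and 1 not called. The sigma class probe CUST_25915 read 10.36, 10.41 and 10.52 in eggs and 15.29, 15.25 and 15.33 in juveniles, a 29.1-fold rise. The pi class probe CUST_53080 had an egg mean of 8.92 and read 6.12, 6.22 and 6.29 in juveniles, a fall by 2.71 ± 0.32 (limma adjusted p = 3.6e-06) that was −0.40 and not called on the spike-in scale. The other fall was of xanthine dehydrogenase/oxidase (CUST_54925), a purine-degrading enzyme, by 1.70, which turned to a rise of 0.28 on the spike-in scale. Ovoperoxidase (CUST_47036), named after an enzyme that hardens the fertilized sea urchin egg's coat, read 4.36, 5.42 and 6.08 in eggs, none well above background, and 12.39, 12.53 and 12.22 in juveniles, at least 51.5-fold higher.

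The study's annotated list of genes high in juveniles was drawn up on these juvenile arrays against umbonal larvae, so its high juvenile levels are a description, but the egg arrays were not used to choose it. Of its 281 probes, 277 were higher in juveniles than in eggs and 4 were not called, beside 32.4% higher over all tested probes, counts that the choice of high juvenile signals largely fixes. In eggs 29 were on all 3 arrays and 185 on none. Those 29 included structural and metabolic genes. A collagen (CUST_52550), of connective tissue, read 8.09, 8.37 and 8.61 in eggs and 14.92, 14.86 and 14.72 in juveniles, an 89.1-fold rise. Fatty acid synthase (CUST_52372), which makes fatty acid chains, rose 17.6-fold, and a glass-like protein (CUST_50188), named for a Drosophila transcription factor of the eye, rose 26.6-fold. An insoluble protein of the pearl oyster (CUST_36977) was already bright in eggs at 10.80, 10.91 and 10.97, held larval means of 10.67, 10.89 and 10.76, and rose to 15.66, 15.66 and 15.40.

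Few egg transcripts that were lower in larvae were back in juveniles. Of 31019 probes measured on all 3 egg arrays, 7524 (24.3%) were called lower than eggs in trochophores, D-shaped larvae and umbonal larvae alike. The lower calls made up 27.1%, 30.5% and 31.4% of the probes tested at these stages, and 13.4% of tested probes were called higher in juveniles than in umbonal larvae. Of the 7524, 6714 (89.2%) stayed low, that is they were lower in juveniles than in eggs and not higher than in umbonal larvae. Another 365 (4.85%) rose from the umbonal stage and were still lower than in eggs. The 284 probes back in juveniles (3.77%) were called higher than in umbonal larvae and not lower than in eggs, and 60 of these were called higher than in eggs. The median log2 signal of the 284 was 9.48 in eggs, 7.31, 6.86 and 7.18 in the larvae and 9.90 in juveniles, and that of the 6714 was 10.52 in eggs and 7.01 in juveniles. Lower does not mean absent, as 163 of the 284 and 4728 of the 6714 were well above background on all 9 larval arrays. Only 7 and 135 were on no umbonal array. These calls share egg and umbonal arrays, so the classes are counts that their definition fixes.

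Membership of the 284 depends on scaling. The 75th-percentile shift gave 272 probes, of which 159 were the same, and spike-in scaling gave 170, of which 41 were the same. Leaving out each of the 15 arrays in turn kept 207 of the 284 every time. Of the 16 with a gene name or candidate label, 11 were back after the 75th-percentile shift and 6 on the spike-in scale.

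The named transcripts that returned were of several kinds. KRMP-7 (CUST_47674), a lysine-rich shell framework protein, read 9.59, 9.67 and 10.12 in eggs, had larval means of 7.48, 5.36 and 4.89, and read 15.32, 15.14 and 15.29 in juveniles, 43.9-fold above eggs (limma adjusted p = 1.3e-09). A shell matrix gene was thus measured in every egg pool, fell in every larval stage and was at its highest in juveniles, on all 3 scales. A papilin-like protein (CUST_32937), of a family of extracellular matrix glycoproteins, read 9.22, 9.41 and 9.51 in eggs, 6.56, 6.70 and 5.95 in the larval means and 14.14, 13.85 and 13.77 in juveniles. Chloride channel 7 (CUST_3687), named for a lysosomal chloride transporter in mammals, had an egg reading of 8.22, 8.18 and 8.61 and juvenile values of 13.59, 13.59 and 13.19. Both lay above every egg pool in every juvenile pool, and the second was back on the quantile and 75th-percentile scales but not with spike-in scaling.

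Follistatin-like protein (CUST_48769), named for secreted binders of activin and BMP ligands, read 9.26, 9.27 and 9.48 in eggs and 13.85, 13.89 and 13.53 in juveniles, with a low of 5.48 in D-shaped larvae, but was back on the quantile scale only. Glutamine synthetase (CUST_6505), which fixes ammonia into glutamine, read 11.30, 11.41 and 11.38 in eggs and 14.72, 14.61 and 14.60 in juveniles. Its lowest larval mean was 8.65, at the umbonal stage. The candidate shell gene Unigene18749 (CUST_18739) had egg values of 8.57, 8.32 and 8.27, fell to 4.46 in umbonal larvae and reached 11.51, 11.62 and 11.16 in juveniles. It was the only one of 5 candidate shell unigenes to be measured in every egg pool. Of the others, 3 were on no egg array. All 5 were higher in juveniles, beside 32.4% of all tested probes. The study chose the candidates for large rises from umbonal larvae to juveniles on these arrays, which largely fixes that count. Both Unigene18749 and glutamine synthetase were back after the 75th-percentile shift but not on the spike-in scale.

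Other returns ended closer to the egg level on the quantile scale. A glutathione S-transferase (CUST_39791) read 10.86, 10.89 and 10.62 in eggs, dropped to a mean of 3.93 in D-shaped larvae and read 12.30, 12.20 and 12.22 in juveniles, 2.73-fold above eggs (limma adjusted p = 0.00019), a difference of 0.68 that was not called with a slide term. A MAM domain protein (CUST_10236), with an extracellular adhesion domain, read 8.37, 8.35 and 8.14 in eggs, 5.17, 5.04 and 4.09 in the larval means and 8.89, 8.70 and 8.90 in juveniles, 0.54 ± 0.33 (SE) above eggs on the log2 scale. On other scales CUST_10236 was called higher than eggs, by 1.32 after the 75th-percentile shift and by 2.62 with spike-in scaling. A pancreatic lipase-related protein (CUST_34469), a digestive lipase relative, read 8.24, 7.97 and 7.97 in eggs, fell to 3.35 in umbonal larvae and read 7.84, 7.70 and 7.78 in juveniles, −0.28 ± 0.44 from eggs, against 0.67 after the 75th-percentile shift and 1.97 with spike-in scaling. All 3 probes were back on each of these scales, while how far they ended from eggs depended on the scale.

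The deepest dips belonged in part to probes without a name or named only for an uncharacterized protein. CUST_25500, named for the uncharacterized protein DDB_G0283357, had the widest gap between its egg and juvenile levels and its highest larval mean. It read 8.19, 8.42 and 8.32 in eggs, 3.07, 3.75 and 2.78 in the larval means and 12.28, 12.22 and 11.81 in juveniles. CUST_32779 came back near its start on the quantile scale, with 9.10, 9.11 and 9.27 in eggs, larval means of 3.72, 4.91 and 4.16 and 8.73, 8.53 and 8.85 in juveniles, but stood 1.45 above eggs on the log2 scale with spike-in scaling. A temptin probe (CUST_12898), named for a water-borne attractant of the sea hare Aplysia, returned from a trochophore mean of 8.35 to 10.47, 10.87 and 10.81 in juveniles against 11.57, 11.20 and 11.24 in eggs, and was called lower than in eggs when a slide term was fitted (−1.06).

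**Figure D5:**
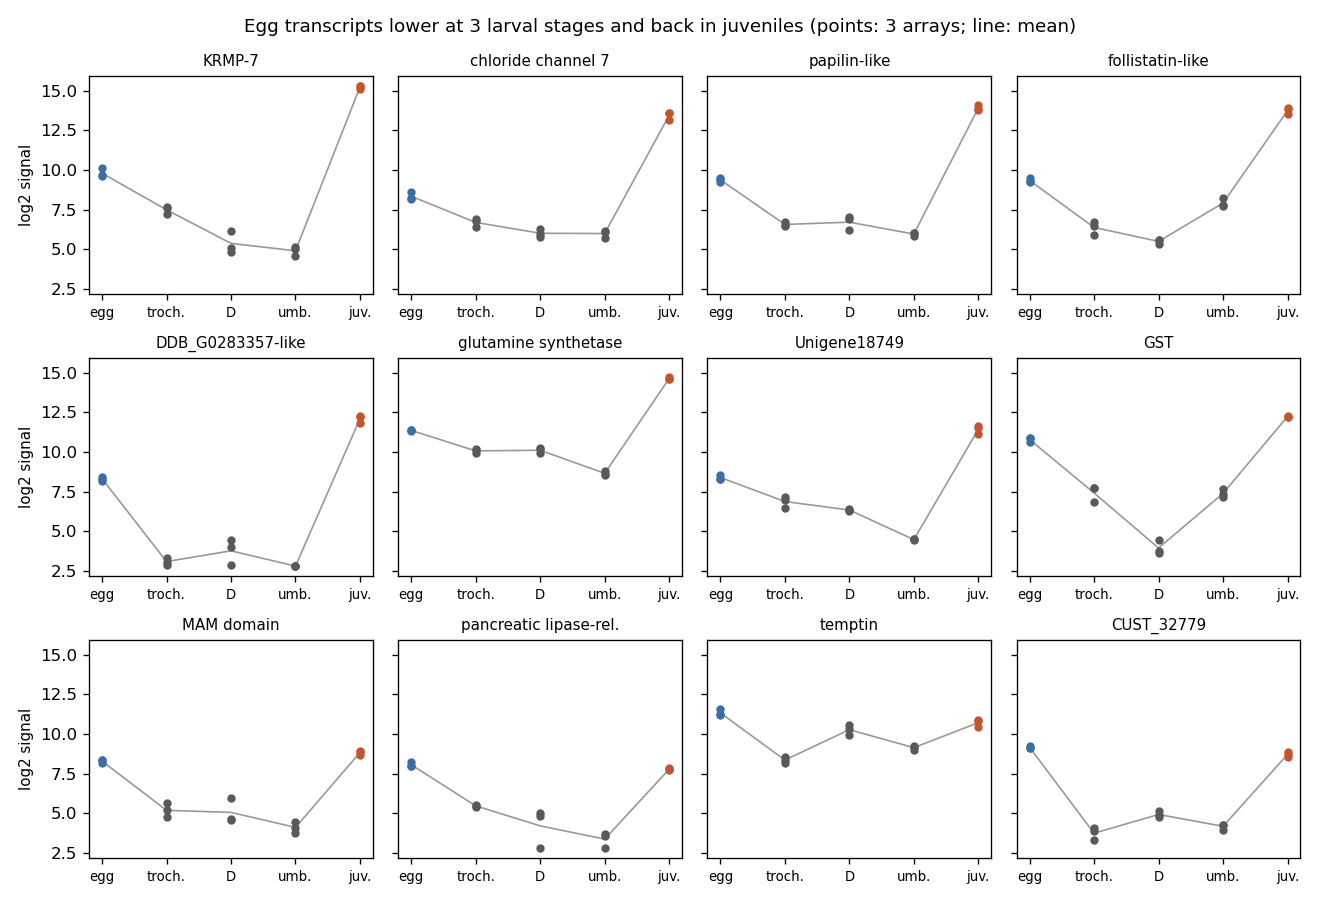
Log2 signal over the 5 stages of 12 egg transcripts that were lower at all 3 larval stages and back in juveniles, with 1 point per array and a line through the means (blue eggs, grey larvae, orange juveniles). KRMP-7, chloride channel 7, papilin-like and follistatin-like end well above their egg level, and MAM domain, pancreatic lipase-related and CUST_32779 end near it on this quantile-normalized scale.

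The probes designed from GenBank sequences leaned to juveniles. Of 284 tested, 181 (63.7%) were higher and 31 (10.9%) lower, against 32.4% and 32.8% over all tested probes. Of the 152 measured on all 6 arrays 72 were higher and 22 lower, with a median of 0.88 on the log2 scale, against 17.8% higher and 46.0% lower over all such probes. Only the smads among them could be named. Smads carry signals of the TGF-beta and BMP receptors into the nucleus, with Pf-smad4 as the common partner. Pf-smad3 read 8.89, 8.35 and 7.97 in eggs and 6.30, 6.59 and 5.76 in juveniles. Pf-smad4 read 7.48, 7.23 and 7.53 in eggs and 4.39, 4.99 and 5.32 in juveniles, and Pf-smad5 read 8.20, 7.64 and 7.42 against 5.48, 5.32 and 4.95. All 3 smads fell, with changes of −2.19, −2.51 and −2.50 on the log2 scale (limma adjusted p = 0.00012, 4.5e-06 and 3.2e-07), but on the spike-in scale they stood at 0.21, 0.25 and 0.18 and were not called. Pf-smad3 had partly come back, from 4.57 in umbonal larvae. Beside them, CUST_204_PI429683413, with egg values of 9.91, 9.79 and 9.55, was on no juvenile array and at least 63.7-fold lower, and CUST_159_PI429683413, with juvenile values of 15.03, 15.05 and 15.06, was measured on 1 egg array and was at least 192-fold higher with the others at their detection limits.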

How the data were processed

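RNA of 15 pools was hybridised to one-colour (Cy3) Agilent arrays. The deposited intensity values are the authors' Feature Extraction 11.5.1.1 output, namely the processed signal (background-subtracted, spatially detrended), median signal and background of each spot. A deposited table of the authors' log2 values equalled the log2 processed signal less 1 constant per array, and was used as an alternative. Control spots and outlier spots (17 to 56 per array) were left out, spots of a probe were averaged and floored at 1, log2 values were quantile-normalized over the 15 arrays, and stage means were fitted with limma 3.58.1 in R 4.3.3 (lmFit, eBayes). Calls needed an adjusted p below 0.05 and 2-fold. No probe spot was saturated. The number of arrays limits the precision, and p-values measure the spread between the pools that the labels name as replicates. The test was tested on simulated data, where 91% of changes of 3 and 56% of 1.5 on the log2 scale were recovered over 52045 probes.

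Members and gene lists were chosen with earlier results of these data known. Named probes were those of the shell and tyrosine lists, the 10 largest rises, falls and lower bounds, the 10 widest returns, named probes lower in all larvae, GenBank-designed extremes and list extremes. Supplementary tables gave list membership only. The normexp alternative used the median signal, as the files used here hold no mean signal. Alternatives changed the scaling, background, filter, test, fold limit, replicate and slide terms, and left out single arrays. The same replicate numbers in both stages were checked as pairs: deviations correlated at 0.09, 0.05 and 0.07, under the limit of 0.1, so pools were not paired. Pools of unlike number correlated at −0.11 to 0.05, so the check does not settle whether equal numbers mark pairs.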

Additional observations from a re-analysis of the deposited data

How the results depend on the processing

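On the spike-in scale 31934 probes were higher and 7029 lower (11989 and 6390 among probes on all 6 arrays), 3521 egg transcripts were lower in all larvae and 170 back. The fold limit of 4 gave 10889 higher and 10177 lower (2576 and 8629 on all 6 arrays), 2780 lower in larvae and 71 back. Rises numbered 5411 with only probes on all 6 arrays, 5413 with only those on all egg arrays, and 10826 with both stages floored, an alternative chosen after seeing the data. Requiring a lower level at any 1 larval stage gave 16904 and 1017, trochophores only gave 566 back, and an egg mean of at least 9, also chosen afterwards, 168. The juvenile correlation with eggs was 0.596 by rank and 0.685 over all probes, where the mean absolute difference was 1.94. Other alternatives kept these overall counts within 1.5 times, while counts within single gene lists moved further, such as proteasome rises from 3 to 1 and Notch falls from 9 to 5 after the 75th-percentile shift. Unadjusted p gave 16948 higher and 17156 lower, and the SAM statistic 12885 and 14644.

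Leaving out 1 array gave 16509 to 16895 higher, 16914 to 17678 lower, 5310 to 6819 higher and 13931 to 15254 lower on all 6 arrays, 7394 to 8117 lower in larvae and 276 to 350 back. The replicate block, though the pools share only a number, gave 16859 higher, 17082 lower, 5402 and 13947 on all 6 arrays, 7512 and 283, and changed no call of a named probe. A slide term, estimated through the D-shaped stage alone, gave 15197 and 15983, with 297 back, 221 of them the same.

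Signs turned for these probes, all on the log2 scale. After the 75th-percentile shift and in the authors' values, in this order, they were CUST_51407 (−0.30 and −0.30), CUST_22403 (0.47 and 0.48), CUST_45506 (0.0922 and 0.0945), CUST_56226 (−0.50 and −0.50), CUST_32779 (0.15 and 0.15), CUST_50263 (0.86 and 0.87) and CUST_34469 (0.67 and 0.67), and CUST_77_PI429683413 (0.25) in the first only. On the spike-in scale they were CUST_12898 (0.48), CUST_22403 (1.78), CUST_54925 (0.28), CUST_45506 (1.39), CUST_32779 (1.45), CUST_876 (1.24), CUST_50263 (2.17), CUST_34469 (1.97), CUST_206_PI429683413 (1.17), CUST_77_PI429683413 (1.56) with 0.21, 0.25 and 0.18 for the smads 3, 4 and 5. With the slide term they were CUST_45506 (0.27), CUST_56226 (−0.21), CUST_10236 (−0.79), CUST_20947 (−0.34) and CUST_77_PI429683413 (0.20), and CUST_20947 ranged from −0.0469 without the first juvenile pool to 0.305 without the third. The cause was not tested. Leaving out 1 array ended the calls of PFMG12 (CUST_52216) and CUST_367, at lowest 0.955 without the third juvenile pool and 0.426 without the second egg pool.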
